A study of Mus musculus with 4 samples.

Results

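*Gsc*, *Pitx1*, *Barx1*, *Lhx6*, *Alx1*, *Alx4*, *Prrx1* and *Prrx2* are 8 homeobox genes of the mesenchyme that builds the jaws and face, and their signals were followed on 4 mouse embryo arrays. They were chosen by symbol: every probe set that the platform annotation assigns to exactly one of these names was taken, which gave 16 of 34945 single-symbol probe sets and 8 of 18193 genes. *Gsc* and *Pitx1* were picked from these same arrays because their signals were higher in mutant heads at E12.5, so their values in that comparison are a description of the choice. *Prrx1* was read by 6 probe sets, *Pitx1*, *Lhx6* and *Alx1* by 2 each, and *Gsc*, *Barx1*, *Alx4* and *Prrx2* by 1 each. Probe sets of one gene share a target and are not replicates of a condition. By the gene annotation *Gsc* lies on chromosome 12, *Pitx1* and *Barx1* on chromosome 13, *Lhx6*, *Alx4* and *Prrx2* on chromosome 2, *Alx1* on chromosome 10 and *Prrx1* on chromosome 1.

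The study asked how the transcription factor Hand2, when made throughout the neural crest, alters the identity of the jaws, and compared mutant embryos with littermates. The mutants, here Hand2NC, had the genotype *Hand2* CAT/+; *Wnt1-Cre*: a transgene keeps *Hand2* silent behind a floxed CAT cassette, and Cre made under the *Wnt1* promoter removes the cassette in neural crest cells and their descendants, and also in the dorsal neural tube. The 4 groups were measured on 1 Affymetrix GeneChip array each, namely Hand2NC heads and wild-type heads at E12.5, and Hand2NC whole bodies and wild-type whole bodies at E11.5. All embryos came from a mixed C57BL/6J and ICR background, and RNA of several embryos was pooled before labelling. Stage and tissue change together between the E12.5 and E11.5 arrays and cannot be told apart. With 1 array per group no difference has a replicate check, no p-value was computed, and precision is limited by how few arrays there are.

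The first pharyngeal arch splits into an upper (maxillary) and a lower (mandibular) part, and its mesenchyme comes mostly from the neural crest. In the lower part, endothelin 1 acts on neural crest cells through its receptor and turns on *Dlx5* and *Dlx6*, and these in turn turn on *Hand2* in the distal arch. The homeobox genes described here mark territories within this mesenchyme: *Gsc* and *Pitx1* the mandibular arch, *Barx1* the proximal region where molars form, *Lhx6* the oral side of both jaws, *Alx1* and *Alx4* the frontonasal mesenchyme of the upper face, and *Prrx1* and *Prrx2* most of the facial mesenchyme.

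Hand2 is a bHLH factor that binds E-boxes together with E proteins, so promoter windows of 3 members are shown with every E-box (CANNTG on either strand) in capitals: *Gsc*, one of the genes picked for a higher signal in Hand2NC heads, and *Barx1* and *Lhx6*, which had lower signals there. Each window holds the 250 bases before the RefSeq start in GRCm38.p6, written 5′ to 3′ on the gene's strand, at chr12:104473237-104473486 (minus strand) for *Gsc*, chr13:48662786-48663035 (plus strand) for *Barx1* and chr2:36105409-36105658 (minus strand) for the first of 3 *Lhx6* starts.
Gsc: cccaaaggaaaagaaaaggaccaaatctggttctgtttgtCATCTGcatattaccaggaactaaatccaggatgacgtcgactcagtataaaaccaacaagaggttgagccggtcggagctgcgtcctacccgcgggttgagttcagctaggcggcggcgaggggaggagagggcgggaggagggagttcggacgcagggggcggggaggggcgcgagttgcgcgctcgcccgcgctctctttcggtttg
Barx1: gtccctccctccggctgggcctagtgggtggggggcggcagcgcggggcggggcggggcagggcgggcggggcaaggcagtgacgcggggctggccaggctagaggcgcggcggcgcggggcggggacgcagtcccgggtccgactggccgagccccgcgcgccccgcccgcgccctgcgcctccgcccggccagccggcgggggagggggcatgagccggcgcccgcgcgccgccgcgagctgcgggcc
Lhx6: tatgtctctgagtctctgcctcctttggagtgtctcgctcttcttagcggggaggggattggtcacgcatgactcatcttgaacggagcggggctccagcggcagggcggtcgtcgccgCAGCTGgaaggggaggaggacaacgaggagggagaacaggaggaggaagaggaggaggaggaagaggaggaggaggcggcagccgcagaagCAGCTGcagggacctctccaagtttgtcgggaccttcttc

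The *Gsc* window held 1 E-box, which starts 210 bases before the RefSeq start and reads CATCTG, a form that Hand2 dimers are known to prefer. The *Barx1* window, with a GC content of 85.6%, held 0 E-boxes. The first *Lhx6* window held 2, both CAGCTG, starting 131 and 40 bases before the RefSeq start, and the windows of the other *Lhx6* starts held 0. Those of *Prrx1* and *Prrx2*, not shown, held 0 as well, so among all member windows only *Gsc* and the first *Lhx6* window held an E-box. Of 32851 windows of the same length in the RefSeq table, 66.2% held an E-box, and 14.4% held the form seen in *Gsc*, which is itself counted among the E-boxes. TAATTA, a core bound by many homeodomains, was found on either strand in 4.84% of all windows and, among the 7 windows of members, in 1, that of *Prrx1*, 173 bases before the RefSeq start. TAATCC, the core preferred by Gsc and the Pitx factors, was found in 6.25% of all windows and in 0 of those 7. Entries were matched for 5 of the 8 members, and these matches describe letters only, not bound sites.

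Signals are MAS5 intensities, scaled so that the trimmed mean of each array is 500, and the median probe set had a signal of 102 on the Hand2NC E12.5 array, 106 on the wild-type E12.5 array, 101 on the Hand2NC E11.5 array and 97.2 on the wild-type E11.5 array. A probe set was counted in a comparison when its brighter array reached that array's median. It was called when it differed at least 2-fold, the cutoff that the study applied. Of the 16 member probe sets, 13 passed this signal filter in each comparison. The other 3 lay below the array median on all 4 arrays: the single *Alx4* probe set 1421737_at, *Lhx6* 1422262_a_at and *Prrx1* 1458004_at. As a yardstick in place of replicate error, each log2 ratio is given with its local spread, the robust SD of the log2 ratio over the 500 probe sets nearest in mean signal, which holds measurement error and real change together. In these bulk samples fewer cells of a type and less RNA per cell cannot be told apart.

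**Figure D1:**
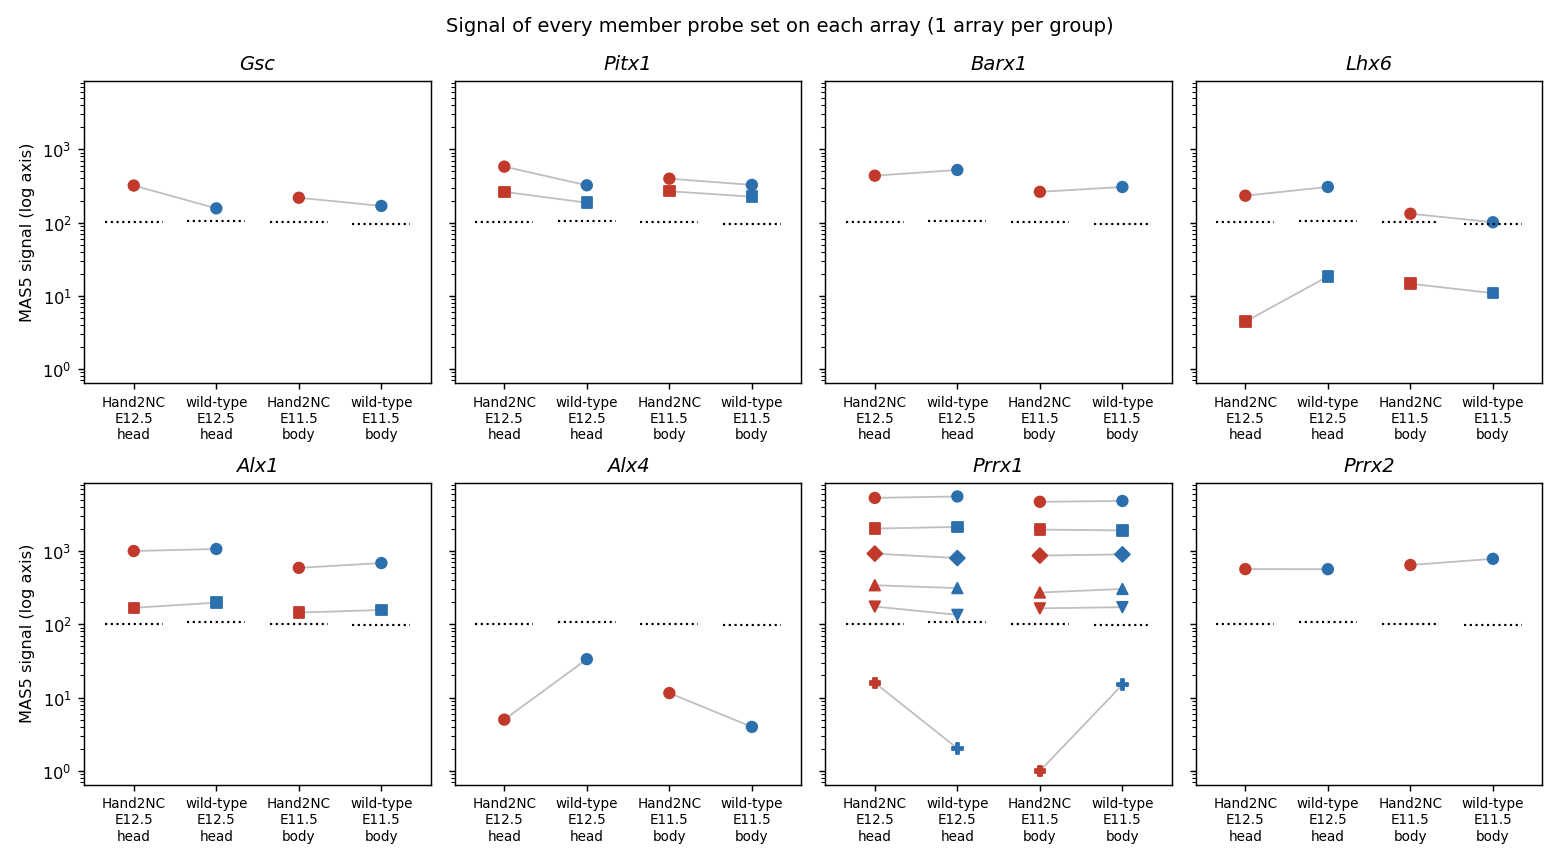
MAS5 signal (log axis) of every probe set of the 8 genes on the Hand2NC and wild-type E12.5 head arrays and the Hand2NC and wild-type E11.5 whole-body arrays, 1 panel per gene and 1 marker shape per probe set. Red is Hand2NC, blue is wild-type, grey lines join the 2 arrays of a stage for one probe set, and dotted lines are the array medians; *Gsc* and *Pitx1* lie higher in Hand2NC at E12.5, while *Alx4* and 1 probe set each of *Lhx6* and *Prrx1* lie below the medians.

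*Hand2* itself, the gene driven in the mutants, was checked first. Probe set 1422221_at had signals of 706 in Hand2NC heads and 33.4 in wild-type heads at E12.5, and of 314 in Hand2NC and 67.1 in wild-type bodies at E11.5. Both wild-type signals lay below their array's median. With that median in their place, this probe set was at least 6.68-fold higher in Hand2NC heads and at least 3.23-fold higher in Hand2NC bodies. The brightest *Hand2* probe set, 1436041_at, had 839 in Hand2NC and 592 in wild-type heads (log2 0.50) and 1244 in Hand2NC and 1214 in wild-type bodies (log2 0.04). The brightest probe set thus gave a much smaller ratio than 1422221_at at both stages. The third, 1443854_at, lay below the array median on all 4 arrays.

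In E12.5 heads, *Gsc* and *Pitx1* stood above the other members in Hand2NC, and *Alx1*, *Prrx1* and *Prrx2* lay close to wild-type by their brightest probe sets. *Gsc* had a signal of 320 in Hand2NC heads and 156 in wild-type heads, a 2.05-fold ratio (log2 1.03, local spread 0.24). *Pitx1* probe set 1449488_at had 581 in Hand2NC heads and 323 in wild-type heads, 1.80-fold (log2 0.85, local spread 0.20). The second *Pitx1* probe set, 1419514_at, went the same way by less, with 263 in Hand2NC heads and 187 in wild-type heads (1.41-fold, log2 0.49, local spread 0.25). *Gsc* encodes a paired-class homeodomain protein needed for parts of the lower jaw and the middle ear in mice, and *Pitx1* a bicoid-related one needed for mandible and hindlimb. Over all 13 member probe sets that passed the filter, 1 was called at 2-fold, that of *Gsc*, beside 0.907% of all 23370 probe sets tested, and 2 at 1.5-fold, those of *Gsc* and *Pitx1*, beside 4.84%. Because these are the genes picked for this difference, nothing is read from the counts. With 16 added to every signal *Gsc* lay at log2 0.96, inside the 2-fold cutoff.

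The genes of the proximal and oral arch mesenchyme were lower in Hand2NC heads. *Barx1* had a signal of 437 in Hand2NC heads and 523 in wild-type heads (0.836-fold, log2 -0.26, local spread 0.20). *Lhx6* probe set 1425094_a_at had 233 in Hand2NC heads and 307 in wild-type heads (0.760-fold, log2 -0.40, local spread 0.24). Both differences lay beyond the local spread and within the 1.5-fold cutoff, and without replicates their error is not known. *Lhx6* also marks interneurons of the ventral forebrain, which a whole head contains, and of the 12 neuronal genes listed, 11 had lower signals in Hand2NC heads, with a median log2 ratio of -0.15, 0 past 2-fold and summed signals of 41148 in Hand2NC and 45631 in wild-type heads. None of the 12 was at 0, and the part of neurons in the *Lhx6* value was not tested.

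*Alx1*, a gene of frontonasal mesenchyme and the periocular region, had signals of 1001 in Hand2NC heads and 1066 in wild-type heads by its brighter probe set, 1435022_at (log2 -0.09, local spread 0.15), and of 168 in Hand2NC heads and 197 in wild-type heads by 1456454_at (log2 -0.23, local spread 0.27). Both values lay within the local spread. *Alx4*, a related gene of the frontonasal and limb mesenchyme, had signals of 5.0 in Hand2NC heads and 33.4 in wild-type heads, both far below the array medians, so no difference is read for it. The brightest *Prrx1* probe set, 1425528_at, had 5307 in Hand2NC heads and 5558 in wild-type heads (log2 -0.07, local spread 0.08), within the local spread as well. The other *Prrx1* probe sets above the filter ran between log2 -0.08 and 0.38, 3 of the 5 in all being higher in Hand2NC and 2 lower, so they did not give one direction. Of these, 1425526_a_at had 922 in Hand2NC heads and 801 in wild-type heads (log2 0.20, local spread 0.16). *Prrx2*, which acts with *Prrx1* in the skeleton of the mandible, had 566 in Hand2NC heads and 565 in wild-type heads, the closest match among the members.

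The 13 member probe sets had a median log2 ratio of 0.0031 in E12.5 heads, beside -0.006 for all 23370 probe sets tested. The members' median includes the *Gsc* and *Pitx1* probe sets, picked for a higher value here, so nothing is read from setting the 2 medians side by side. *Gsc* lay at 4.31 and *Pitx1* 1449488_at at 4.21 times the local spread, and the other member probe sets between -1.69 times (*Lhx6*) and 1.98 times (*Pitx1* 1419514_at). Since *Gsc* and *Pitx1* were picked for this difference, their distance from the other members only describes the choice. Y-linked genes differed between the same arrays. All 3 that have a probe set were over 2-fold lower on the Hand2NC E12.5 array. *Uty* had 2.0 in Hand2NC and 402 in wild-type heads, and *Kdm5d* 8.7 in Hand2NC and 677 in wild-type heads. *Eif2s3y* had 14.4 in Hand2NC and 956 in wild-type heads. *Xist*, listed with them, was higher in Hand2NC heads (log2 0.85). By these genes the sex make-up of the E12.5 pools changed together with genotype and cannot be told apart from it. Its part in the members' values was not tested. At E11.5 none of the 3 was past 2-fold in either direction. Of these and *Xist* together, 2 were higher and 2 lower in Hand2NC bodies, between log2 -0.18 and 0.59, with 1 past 1.5-fold higher.

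**Figure D2:**
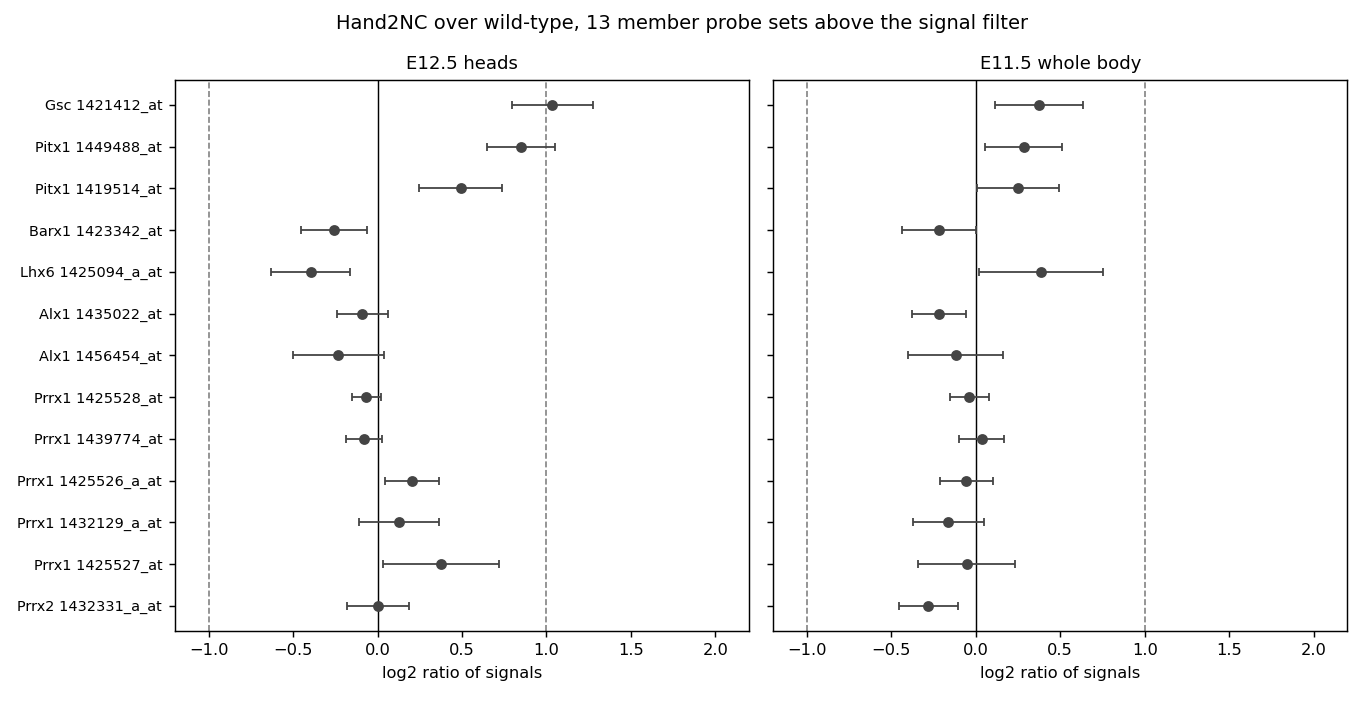
Log2 ratio of Hand2NC to wild-type signals in E12.5 heads (left) and E11.5 whole bodies (right) for the 13 probe sets above the signal filter. Bars are the local spread on either side of the value, not a replicate error, and dashed lines mark 2-fold; at E12.5 *Gsc* lies at 1.03 and *Pitx1* at 0.85 and 0.49, and at E11.5 every probe set lies between -0.28 and 0.39.

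At E11.5, in whole bodies, none of the 13 member probe sets above the signal filter reached 1.5-fold. *Gsc* and *Pitx1* were higher in Hand2NC by less than in E12.5 heads. *Gsc* had a signal of 218 in Hand2NC bodies and 169 in wild-type bodies (1.29-fold, log2 0.37, local spread 0.26). *Pitx1* had 398 in Hand2NC bodies and 327 in wild-type bodies by 1449488_at (log2 0.28, local spread 0.23), and 268 in Hand2NC and 226 in wild-type bodies by 1419514_at (log2 0.25, local spread 0.24). The pair was picked by its E12.5 values, with earlier results of these data known, so these 3 values are no independent check. They lay at 1.02 to 1.43 times the local spread, and those of *Pitx1* come from probe sets that share a target. Of the 13 member probe sets, 0 were called at 2-fold, beside 0.787% of 23394 tested, and 0 at 1.5-fold, beside 4.74%. Their median log2 ratio was -0.05, and that of all probe sets 0.004.

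*Lhx6* 1425094_a_at had 132 in Hand2NC bodies and 101 in wild-type bodies (1.31-fold, log2 0.39, local spread 0.37), with the wild-type signal barely above its array's median. *Barx1* had 263 in Hand2NC and 306 in wild-type bodies (log2 -0.22, local spread 0.22), close in size to its value in E12.5 heads. *Alx1* 1435022_at had 590 in Hand2NC and 686 in wild-type bodies (log2 -0.22, local spread 0.16). *Prrx2* had 644 in Hand2NC and 783 in wild-type bodies (log2 -0.28, local spread 0.18), the lowest ratio among the 13 probe sets at this stage. The 5 *Prrx1* probe sets above the filter lay between log2 -0.16 and 0.03, the brightest with 4699 in Hand2NC and 4823 in wild-type bodies. *Alx4* was again far below the array medians, at 11.5 in Hand2NC and 4.0 in wild-type bodies. The labels give whole bodies here, while a legend of the study names heads. Of 13 heart muscle genes, 12 lay above the filter at E11.5, and of 14 limb and posterior *Hox* genes 11 did, against 4 and 1 in the E12.5 heads.

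The mutant difference was larger at E12.5 than at E11.5 for *Gsc* and *Pitx1* and had opposite signs for *Lhx6*. Each stage has its own pair of arrays, so the 2 ratios share no sample. For *Gsc* the log2 ratio at E12.5 minus that at E11.5 was 0.66, with a local spread of the difference of 0.35. For *Pitx1* the difference was 0.56 by 1449488_at (local spread 0.31) and 0.24 by 1419514_at (local spread 0.35). The E12.5 values are what picked these genes, so their size is a description. For *Lhx6*, which was lower in Hand2NC at E12.5 and higher at E11.5, the difference was -0.78 (local spread 0.44) and was not tested, since no group has a second array. *Barx1* differed by -0.04 (local spread 0.29) and the brightest *Prrx1* probe set by -0.03 (local spread 0.15), within the spread. *Prrx2*, level with wild-type at E12.5 and lower in Hand2NC at E11.5, differed by 0.28 (local spread 0.25). Over the 13 probe sets the median difference was 0.24. That median includes the *Gsc* and *Pitx1* probe sets, picked by their E12.5 values, so no shift of the whole list is read from it.

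**Figure D3:**
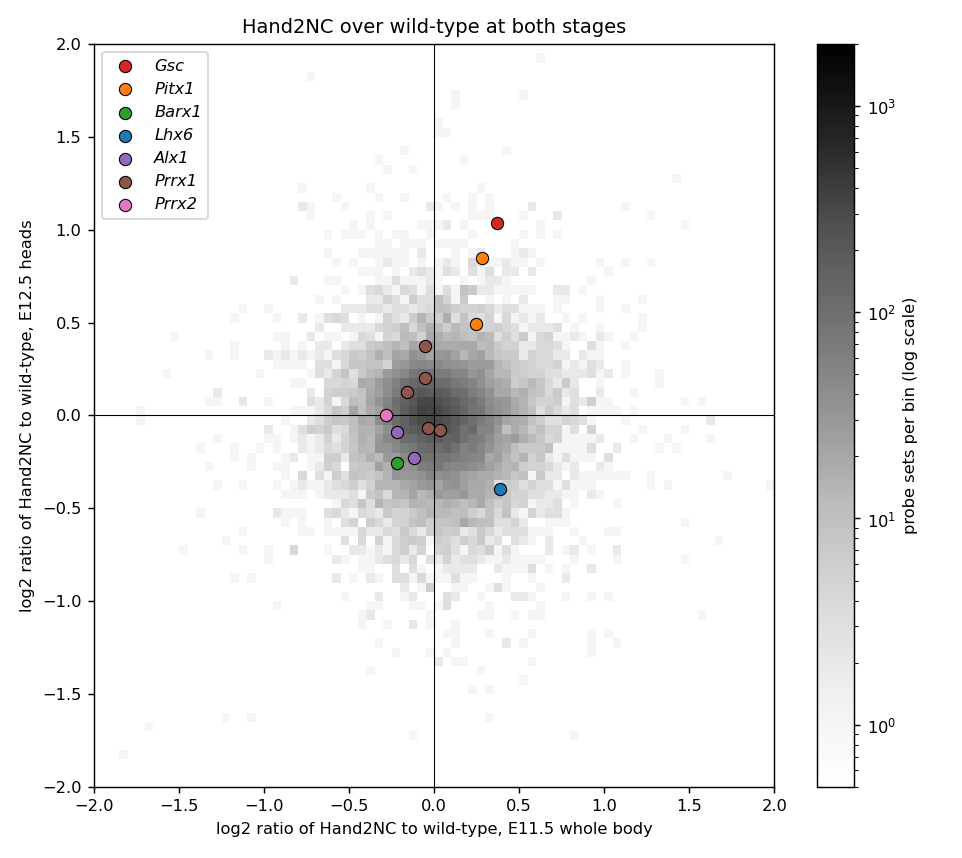
Log2 ratio of Hand2NC to wild-type in E12.5 heads (y axis) against that in E11.5 whole bodies (x axis). Grey bins count the 22243 probe sets above the filter at both stages, of which 36 lie outside the plotted range, and coloured points are the 13 member probe sets; *Gsc* and *Pitx1* lie to the upper right, and *Lhx6* lies at the lower right with 0.39 at E11.5 and -0.40 at E12.5.

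Between E12.5 heads and E11.5 whole bodies, *Lhx6*, *Barx1* and *Alx1* had higher signals in the heads in both genotypes. In Hand2NC, *Lhx6* 1425094_a_at was 1.76-fold higher in heads (log2 0.82, local spread 0.40), *Alx1* 1435022_at by a log2 ratio of 0.76 (local spread 0.34) and *Barx1* 1.66-fold (log2 0.73, local spread 0.36). In wild-type, *Lhx6* was 3.03-fold higher in heads (log2 1.60, local spread 0.48), *Barx1* 1.71-fold (log2 0.77, local spread 0.39) and *Alx1* 1.55-fold (log2 0.64, local spread 0.35). In Hand2NC 0 of the 13 member probe sets were called at 2-fold, beside 4.91% of 23700 tested, and 3 at 1.5-fold, beside 16.4%. In wild-type 1 was called at 2-fold, beside 7.11% of 23815 tested, and 3 at 1.5-fold, beside 20.3%. At these backgrounds the 3 of 13, or 23.1%, is a share close to that of all probe sets. The mean over both *Lhx6* probe sets, one of them dim, turned its direction in Hand2NC (log2 -0.45); in wild-type it stayed past 2-fold (log2 1.18) but fell below the signal filter and was not called.

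*Gsc*, and *Pitx1* by its brighter probe set, had nearly the same signal in the 2 wild-type samples and a higher one in Hand2NC heads. For *Gsc* the log2 ratio of heads to bodies was 0.55 in Hand2NC (local spread 0.46) and -0.11 in wild-type (local spread 0.48), and for *Pitx1* 1449488_at it was 0.55 in Hand2NC (local spread 0.36) and -0.02 in wild-type (local spread 0.39). By signal *Gsc* ran in the order Hand2NC heads, Hand2NC bodies, wild-type bodies and wild-type heads, and the 2 wild-type values, which are neighbours, did not differ beyond the local spread. *Pitx1* 1449488_at ran in the same order. The other *Pitx1* probe set, 1419514_at, did not: its signal was 263 in Hand2NC heads and 268 in Hand2NC bodies (log2 -0.03), and 187 in wild-type heads and 226 in wild-type bodies (log2 -0.27, local spread 0.48). *Lhx6* ran in the order wild-type heads, Hand2NC heads, Hand2NC bodies and wild-type bodies. The first 2 steps lay beyond the local spread, while the last, a log2 ratio of 0.39 against a local spread of 0.37, ran between 0.33 and 0.39 over the scaling alternatives and 16 added and is not separated from it. *Prrx2* was lower in heads, with a log2 ratio of -0.19 in Hand2NC (local spread 0.33) and -0.47 in wild-type (local spread 0.34). The brightest *Prrx1* probe set was at 0.18 in Hand2NC and 0.20 in wild-type, within the local spread. Limb tissue, where *Pitx1*, *Prrx1*, *Prrx2* and *Alx4* are also active, was in the E11.5 samples by its markers: the summed signal of the 14 limb and posterior *Hox* genes was 454 in Hand2NC heads, 520 in wild-type heads, 4767 in Hand2NC bodies and 4590 in wild-type bodies, and its part in the members' stage ratios was not tested.

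**Figure D4:**
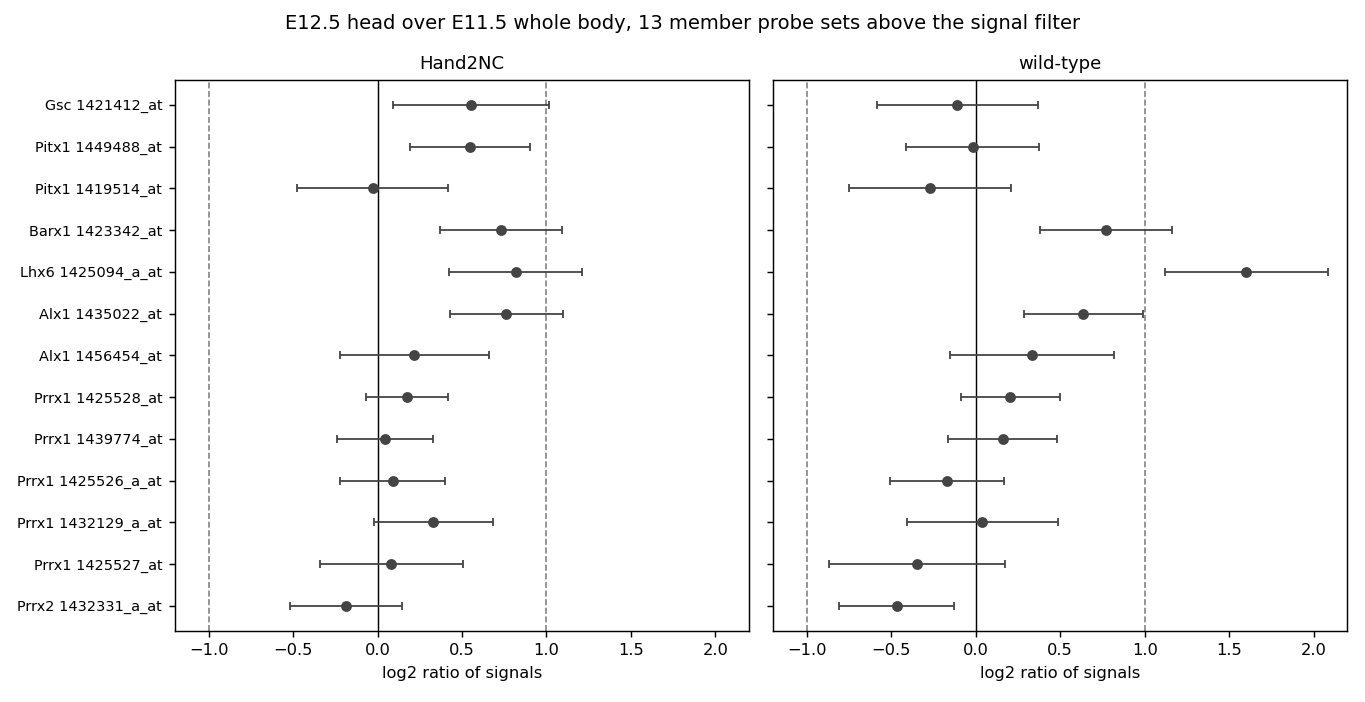
Log2 ratio of E12.5 head to E11.5 whole-body signals in Hand2NC (left) and wild-type (right) for the 13 probe sets above the filter. Bars are the local spread on either side of the value and dashed lines mark 2-fold; only *Lhx6* in wild-type, at 1.60, lies beyond 2-fold, and *Barx1* and the brighter *Alx1* probe set lie between 0.64 and 0.77 in both genotypes.

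The genes most like *Gsc* and *Pitx1* were sought over the 4 arrays by the distance between centred log2 signals, among 10962 genes at or above the median of every array. The nearest gene to *Gsc* was *Pitx1* (distance 0.152), followed by *Gtpbp2* and *Wnt5b*, a Wnt ligand (0.30 for each). *Wnt5b* had signals of 293 in Hand2NC and 171 in wild-type heads and 192 in Hand2NC and 139 in wild-type bodies. The nearest to *Pitx1* were *Gsc*, *Eml1* (0.192) and *Ephb6* (0.201), a receptor of ephrin ligands. *Ephb6* had 213 in Hand2NC and 130 in wild-type heads and 140 in Hand2NC and 109 in wild-type bodies. *Gsc* and *Pitx1* were both picked for one side of this pattern, so their likeness is a description over 4 values. Among the 7 members with a signal above the filter, *Barx1* and *Alx1* were the closest pair (distance 0.130) and *Lhx6* and *Prrx2* the farthest apart (1.63).

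The paralogues of the members that passed the filter showed no difference past 2-fold between genotypes. *Lhx8*, which acts with *Lhx6* in the oral mesenchyme and the palate, had 895 in Hand2NC heads and 1069 in wild-type heads (log2 -0.26, local spread 0.15), and 369 in Hand2NC and 432 in wild-type bodies (log2 -0.23, local spread 0.19). It was 2-fold or more higher in heads than bodies in both genotypes, with log2 ratios of 1.28 in Hand2NC and 1.31 in wild-type. *Pitx3*, known for the lens and midbrain, had 106 in Hand2NC heads and 129 in wild-type heads (log2 -0.28, local spread 0.38). *Gsc2* and *Barx2* lay below the filter in E12.5 heads.

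The lists of related genes were read by the brightest probe set of each gene, which for *Hand2* is 1436041_at and not the probe set with the large ratio. Of 14 genes of the endothelin 1, Dlx and Hand pathway with a probe set, 11 passed the filter in E12.5 heads and 0 were called at 1.5-fold, beside 4.84% of all probe sets, with a median log2 ratio of 0.09. *Dlx5* had 674 in Hand2NC heads and 599 in wild-type heads (log2 0.17, local spread 0.15), whereas its neighbour *Dlx6* had 204 in Hand2NC heads and 280 in wild-type heads (log2 -0.46, local spread 0.25). *Edn1*, the ligand, had 112 in Hand2NC heads and 82.9 in wild-type heads (log2 0.43, local spread 0.39), the wild-type signal lying below its array's median. At E11.5, 10 of the 14 passed and 0 were called at 1.5-fold, beside 4.74% of all probe sets, with a median of 0.04. At these shares a list of this size would hold few calls or none, so nothing is read from the counts of 0. Of 21 other homeobox genes of the facial mesenchyme, such as the *Msx* and *Pax* families, all passed and 0 were called at 1.5-fold in E12.5 heads: 17 were lower and 4 higher in Hand2NC, with a range of -0.53 to 0.47 and a median of -0.11. At E11.5, 9 were lower and 12 higher, with a median of 0.04. Of 14 marker genes of the cranial mesenchyme 13 passed in E12.5 heads, with 1 called at 1.5-fold, a median log2 ratio of -0.01 and summed signals of 19824 in Hand2NC and 19625 in wild-type heads. The gene called was *Osr2*, a factor of palate and tooth mesenchyme, with 77.4 in Hand2NC heads and 135 in wild-type heads (log2 -0.80, local spread 0.38), the Hand2NC signal lying below its array's median. The oral epithelium list, with 9 of 9 passing, had a median of -0.05 and summed signals of 5861 in Hand2NC and 6239 in wild-type heads.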

How the data were processed

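Total RNA was pooled within each group and measured on 4 Affymetrix arrays. The authors deposited 1 MAS5 signal per probe set, an intensity on a linear scale, without detection calls; the genome build is not given in the sources used here. MAS5 summarises perfect-match against mismatch probes and is unstable for dim probe sets. All value columns matched a sample.

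Of 45037 probe sets that are not controls, 34945 had 1 symbol, 932 several and 9160 none, and the last 2 classes were not used for genes. Every array was brought to a 2% trimmed mean of 500 before log2 ratios were formed. The filter was the array median (50th percentile). The members, gene lists and settings were chosen with earlier results of these data known. Named genes are all member probe sets, *Hand2*, paralogues, the 3 genes nearest in pattern to *Gsc* and *Pitx1*, and up to 4 per list past 2-fold; *Dlx5*, *Edn1*, *Dlx6* at E12.5 and *Osr2* were named after their values were seen. The counting was tested on simulated data. Software was matplotlib 3.10.9, statsmodels 0.14.6, scipy 1.17.1, pandas 2.3.3 and numpy 2.4.6 under Python 3.11.15. Alternatives were unscaled signals, median centring, quantile and loess normalization, 16 added, other filters, other cutoffs and other probe set rules.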

Additional observations from a re-analysis of the deposited data

Results flagged for a closer look

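*Lhx6*, by probe set 1425094_a_at, differed between the stages in the sign of its mutant ratio: it had a log2 ratio of -0.40 in E12.5 heads, with signals of 233 in Hand2NC and 307 in wild-type, and of 0.39 in E11.5 bodies, with signals of 132 in Hand2NC and 101 in wild-type. The difference of -0.78 between the stages was not tested, since each group has 1 array. The second *Lhx6* probe set, 1422262_a_at, had signals of 4.4 in Hand2NC and 18.4 in wild-type heads and 14.7 in Hand2NC and 10.9 in wild-type bodies, all below the array medians.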

How the results depend on the processing

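The number of member probe sets past 2-fold in E12.5 heads, 1 by the settings of the report, was 0 with 16 added to every signal (*Gsc* at log2 0.96), 0 with a filter at the 75th percentile, 4 with no filter and 2 at 1.5-fold. At E11.5 it was 0, and 2 with no filter. Between heads and bodies of Hand2NC it was 0, and 3 both with no filter and at 1.5-fold. In wild-type it was 1, and 3 with no filter or at 1.5-fold, and 0 with the 75th percentile filter, without probe sets that may bind several transcripts, or with the mean over a gene's probe sets. The calls added without a filter come from probe sets below the array median, which limits what depth of signal can show for *Alx4* and the dim *Lhx6* and *Prrx1* probe sets. All medians of the members given here include *Gsc* and *Pitx1*, which were picked by their E12.5 values. The median log2 ratio of the members, 0.0031 in E12.5 heads and -0.05 at E11.5, was 0.30 and -0.19 with the mean over probe sets, which weights dim probe sets fully. Between heads and bodies of Hand2NC the median of 0.22 became 0.55 with the brightest probe set and 0.52 with the mean over probe sets. In wild-type the median of 0.04 became -0.084 with median centring, -0.069 with quantile normalization, -0.075 with loess, 0.16 with the 75th percentile filter or without probe sets that may bind several transcripts, 0.20 with the brightest probe set and -0.13 with the mean over probe sets; median centring moved the median of all probe sets there by -0.12. For the difference between the stages, whose alternatives were added after seeing the data, the median of 0.24 became 0.36 with median centring, 0.13 with the 75th percentile filter, without probe sets that may bind several transcripts or with the brightest probe set, and 0.34 with the mean over probe sets. Over the scaling alternatives and 16 added, *Gsc* in E12.5 heads ran between 0.96 and 1.09 and *Pitx1* 1449488_at between 0.82 and 0.90. The sign held for 13 of 13 member probe sets in E12.5 heads and for 12 of 13 at E11.5, where *Prrx1* 1439774_at ran between -0.03 and 0.04. Between heads and bodies it held for 13 of 13 in Hand2NC and 12 of 13 in wild-type, where *Prrx1* 1432129_a_at ran between -0.08 and 0.04. With the mean over probe sets, *Prrx1* had log2 ratios of 0.59 at E12.5 and -0.70 at E11.5. These means include its dim probe set 1458004_at, at log2 2.97 at E12.5 and -3.91 at E11.5. *Lhx6* had a mean of -1.22 at E12.5 but fell below the signal filter and was not called. Over all probe sets, the count past 2-fold in E12.5 heads was 212, and 25 with the 75th percentile filter and 7687 with no filter; at E11.5 it was 184, and 9 and 7547 with these. No paired analysis was possible because each group has 1 array, and no array could be left out.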

Other observations

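Of the lists of muscle genes and of epithelial signals, 1 gene each passed 2-fold between genotypes, where 0.907% of all probe sets did so in E12.5 heads and 0.787% at E11.5. *Myf5*, a determination factor of skeletal muscle, had signals of 177 in Hand2NC heads and 81.2 in wild-type heads at E12.5 (log2 1.13). That wild-type signal lay below its array's median of 106, so the size of the ratio in heads is uncertain. In bodies at E11.5, *Myf5* had 421 in Hand2NC and 192 in wild-type (log2 1.13). It was 1 of 12 skeletal muscle genes past 2-fold at each stage, and the 11 and 10 that passed the filter had median log2 ratios of 0.07 in E12.5 heads and 0.21 in E11.5 bodies. *Spry4*, an inhibitor of FGF receptor signalling, had 231 in Hand2NC and 110 in wild-type bodies at E11.5 (log2 1.08, its other probe sets lying below the array medians), the only gene past 2-fold of 11 that passed the filter in a list of FGF and BMP signals of the jaw epithelium. In E12.5 heads 0 of 10 genes of that list passed 2-fold.

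*Dlx1* and *Dlx2*, homeobox genes of both jaws and of the forebrain, were higher in heads than in bodies in both genotypes, with log2 ratios of 1.61 and 1.38 in Hand2NC and of 1.63 and 1.33 in wild-type. *Tcf21*, a factor of several mesenchymes, was lower in heads, with 74.6 in Hand2NC heads against 497 in Hand2NC bodies and 44.1 in wild-type heads against 527 in wild-type bodies.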
